A study of Homo sapiens with 20 samples.

Results

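The epidermal differentiation complex is a cluster of genes on human chromosome 1 whose products build and guard the surface layer of stratified epithelia. The genes studied here were those whose symbol starts with SPRR, is S100A followed by a number, or is LCE followed by a number and a letter, together with IVL, FLG, FLG2, LORICRIN, CRNN, TCHH, RPTN and HRNR. Of 54 genes in the RefSeq table that fit this description, 33 were measured by a probe set that names 1 gene, of 19775 genes measured in all. They lie between bases 151982915 and 153634361 of chromosome 1 (GRCh38.p14). The 33 comprised all 15 S100A genes, 7 of 12 SPRR genes, 4 of 19 LCE genes, IVL, LORICRIN, and 5 of 6 genes of the S100-fused type. HRNR, SPRR2A, SPRR2D, SPRR2E, SPRR2F, SPRR5 and the other 15 LCE genes were not analysed here.

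Expression was measured in MII cells (MCF10-T1k), a human mammary epithelial line transformed with RAS, on 20 Affymetrix HG-U133 Plus 2.0 arrays. Cells were transfected with siRNA against APC and TAZ (siAPC/siTAZ), APC (siAPC), beta-catenin and TAZ (sibcat/siTAZ), beta-catenin (sibcat), or GFP as the control (siGFP), with 4 biological replicates, A to D, in each of the 5 groups. APC helps to assemble the destruction complex that keeps beta-catenin low, beta-catenin (gene CTNNB1) carries Wnt signals into the nucleus and also joins cadherins to the cytoskeleton, and TAZ (gene WWTR1) is a coactivator of TEAD transcription factors. All groups share 1 cell line, a serum-containing medium with insulin, EGF, hydrocortisone and cholera toxin, and a lipid transfection. No group received TAZ siRNA alone, so an effect of TAZ siRNA can be read only on top of another depletion.

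As keratinocytes leave the basal layer they make proteins that transglutaminases cross-link beneath the plasma membrane into the cornified envelope. Involucrin (IVL) is an early scaffold of that envelope, loricrin and the late cornified envelope (LCE) proteins reinforce it, and the small proline-rich (SPRR) proteins are short cross-bridging precursors. The S100-fused type proteins, such as filaggrin (FLG) and trichohyalin (TCHH), join an S100-like calcium-binding head to long repeats and bind keratin filaments. S100 proteins are small calcium-binding dimers. S100A8 and S100A9 pair to form calprotectin, an antimicrobial protein of neutrophils, monocytes and stressed epithelia, S100A7 (psoriasin) is an antimicrobial protein of inflamed skin, and S100A4 is known for its part in cell motility.

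The siRNA targets were examined first. APC signal changed by -0.88 ± 0.05 on the log2 scale in siAPC against siGFP (SE, n = 4 arrays each), CTNNB1 by -1.33 ± 0.05 in sibcat against siGFP, and WWTR1 by -2.67 ± 0.05 in siAPC/siTAZ against siAPC and by -2.21 ± 0.05 in sibcat/siTAZ against sibcat (limma, Benjamini-Hochberg adjusted p = 4.42e-11, 3.57e-14, 2.77e-18 and 8.95e-17). Of the 5 APC probe sets 4 were lower in siAPC, and a dim one changed by 0.03 (4.25 in siAPC and 4.22 in siGFP). Of the 3 CTNNB1 probe sets 2 were lower in sibcat, and the other changed by 0.15 (7.16 in sibcat and 7.0 in siGFP). All WWTR1 probe sets were lower with TAZ siRNA. CTNNB1 was also lower by a further -1.41 ± 0.05 in sibcat/siTAZ against sibcat, and APC by a further -0.46 ± 0.05 in siAPC/siTAZ against siAPC. In the other background each was higher. CTNNB1 changed by 0.28 ± 0.05 in siAPC/siTAZ against siAPC, and APC by 0.22 ± 0.05 in sibcat/siTAZ against sibcat (limma adjusted p = 8.63e-05 and 0.00308). The paired groups therefore did not differ in TAZ alone. WWTR1 itself was lower in the single depletions, by -0.41 ± 0.05 in siAPC and -0.43 ± 0.05 in sibcat against siGFP. Array medians lay between 5.07 and 5.11. Of 8 mammary epithelial markers measured, 7 or 8 were above the array medians in every group. Of 11 leukocyte markers, 7 or 8 were at or below them in every group, with group means of PTPRC (CD45) between 2.67 and 2.73.

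Signals differed widely between the genes of the complex. Values are log2 signals, which rank groups within a gene and do not compare abundance between genes. All 5 S100-fused type genes stayed at or below the array medians in every group, with siGFP means from 2.45 to 3.97. Of the 15 S100A genes, 13 had a group mean above the array medians, and the median siGFP mean of all 15 was 10.98. Of the 7 SPRR genes 6 did so, and of the 4 LCE genes 2 did. Group means spanned at least 1 on the log2 scale in 10 of the 33 genes. The highest group was siAPC/siTAZ in 4 genes, siAPC in 9, sibcat/siTAZ in 0, sibcat in 4 and siGFP in 16. Among the 22 genes with a group mean above the array medians, these counts were 2, 6, 0, 1 and 13. In the remaining genes such ranks rest on low signals.

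Values on each array are given below for the 10 genes with a called change of at least 1 (adjusted p under 0.05) in siAPC or sibcat against siGFP or in either comparison that adds TAZ siRNA to a depletion. These were IVL, SPRR1A, SPRR1B, SPRR2B, SPRR3, S100A4, S100A7, S100A8, S100A9 and S100A14. The plot of these genes shows every array.

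**Figure D1:**
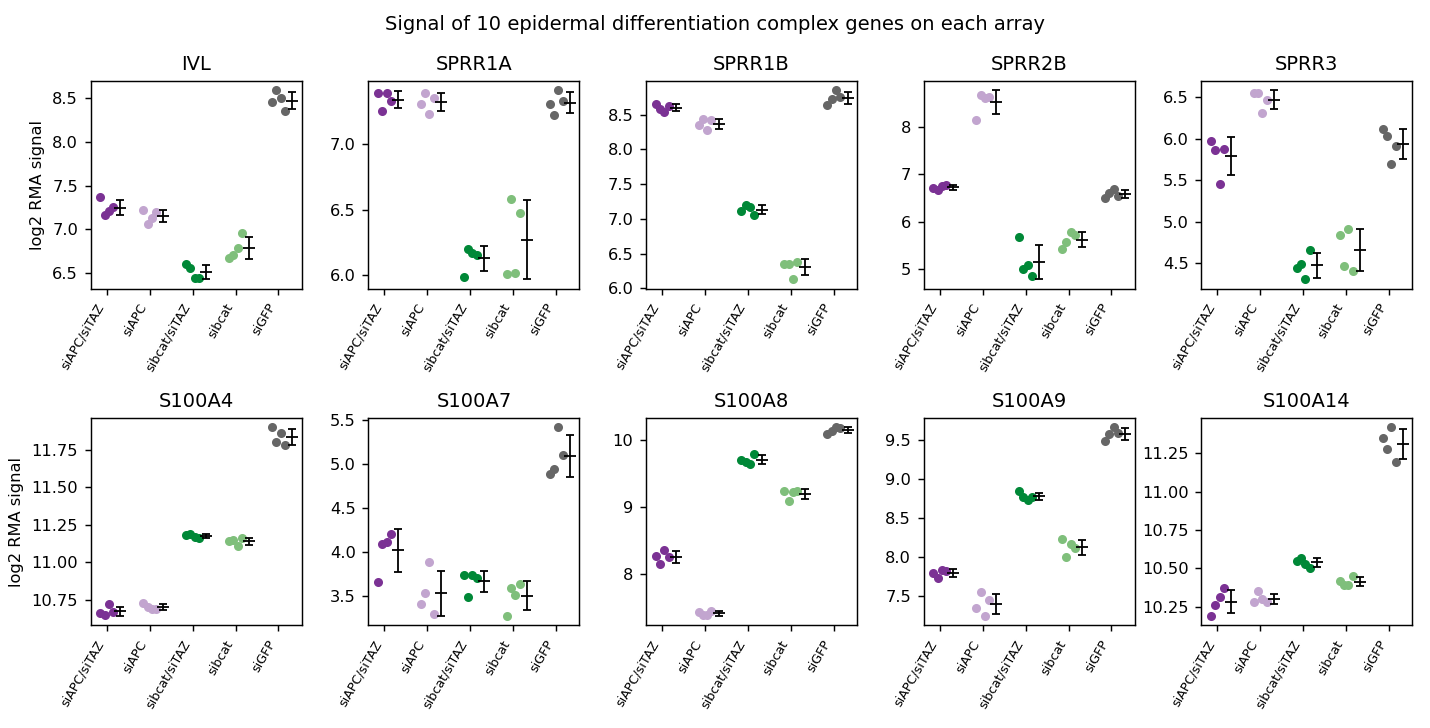
Log2 RMA signal (vertical axis, a separate range for each gene) of 10 genes on each array of the 5 groups, with the group mean and SD beside the points (n = 4 each). IVL, S100A4, S100A7, S100A8, S100A9 and S100A14 are lower in the 4 depletion groups than in siGFP, SPRR2B is highest in siAPC (8.15 to 8.68), and the 4 SPRR genes are lowest in the sibcat groups.

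The sequence just upstream of the start site is shown for IVL, SPRR1A, SPRR1B and SPRR3, which fell together after beta-catenin siRNA, and for SPRR2B, which fell there and rose after APC siRNA. The 250 bases before the start site come from RefSeq (GRCh38.p14) and run 5′ to 3′ on the gene's own strand, with the AP-1 letters TGANTCA and the TEAD letters GGAATG in capitals. The regions are chr1:152908296-152908545 (IVL, plus strand), chr1:152983831-152984080 (SPRR1A, plus), chr1:153030953-153031202 (SPRR1B, plus), chr1:153001499-153001748 (SPRR3, plus) and chr1:153071612-153071861 (SPRR2B, minus).
IVL: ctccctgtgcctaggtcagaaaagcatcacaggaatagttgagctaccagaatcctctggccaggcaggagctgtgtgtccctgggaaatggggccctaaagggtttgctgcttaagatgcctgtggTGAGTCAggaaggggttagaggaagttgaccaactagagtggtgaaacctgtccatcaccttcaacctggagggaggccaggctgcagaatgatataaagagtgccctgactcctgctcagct
SPRR1A: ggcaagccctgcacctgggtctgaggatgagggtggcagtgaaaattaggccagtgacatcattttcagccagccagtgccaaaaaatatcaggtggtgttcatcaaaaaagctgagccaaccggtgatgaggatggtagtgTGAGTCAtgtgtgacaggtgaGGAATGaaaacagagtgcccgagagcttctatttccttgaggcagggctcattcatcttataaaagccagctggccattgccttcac
SPRR1B: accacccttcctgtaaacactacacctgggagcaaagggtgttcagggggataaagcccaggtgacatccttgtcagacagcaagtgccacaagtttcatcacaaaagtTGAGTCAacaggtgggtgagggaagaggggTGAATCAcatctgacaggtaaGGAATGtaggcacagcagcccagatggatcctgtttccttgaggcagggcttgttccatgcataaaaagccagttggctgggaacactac
SPRR3: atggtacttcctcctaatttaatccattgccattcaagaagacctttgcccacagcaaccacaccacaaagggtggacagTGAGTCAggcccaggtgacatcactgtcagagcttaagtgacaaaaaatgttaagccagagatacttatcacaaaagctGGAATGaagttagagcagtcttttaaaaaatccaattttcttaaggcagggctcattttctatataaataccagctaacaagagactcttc
SPRR2B: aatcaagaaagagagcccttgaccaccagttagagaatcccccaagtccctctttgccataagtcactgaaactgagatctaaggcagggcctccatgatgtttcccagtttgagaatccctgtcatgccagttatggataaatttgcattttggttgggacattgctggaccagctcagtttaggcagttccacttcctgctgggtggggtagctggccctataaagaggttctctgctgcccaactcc

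SPRR1A, SPRR1B and SPRR3 each held an AP-1 match followed by a TEAD match that began 87, 90 and 91 bases before the start site. SPRR1B held a pair of AP-1 matches, beginning 141 and 111 bases before the start, and IVL held 1, at 123 bases. SPRR2B held neither in this window. Nor did S100A4, S100A7, S100A9, S100A14 or any listed promoter of S100A8, which also fell after beta-catenin siRNA. The AP-1 letters were held too by CRNN, FLG, FLG2, LORICRIN, RPTN, S100A12, SPRR2G and TCHH, none called in siAPC or sibcat against siGFP. FLG and TCHH held the TEAD letters as well. S100A5, also not called there, held both in 1 of its 2 listed promoters. The AP-1 letters were further held by S100A3 and by 1 of the 2 listed promoters of S100A2. Both of these genes fell, S100A3 by 0.67 in siAPC and 0.36 in sibcat, and S100A2 by 0.36 and 0.31. A link between these letters and the changes was not tested. Both strands were searched, also for the TCF/LEF letters CTTTGAT and the GRHL letters AACNNGTT. Of 26 measured genes with a single promoter in the table, 13 held the AP-1 letters, 7 the TEAD letters, 0 the TCF/LEF letters and 2 the GRHL letters, where 6.57%, 11.9%, 2.26% and 3.0% of 35114 promoters of the same length did. A match describes letters and not a bound site, and an absent match says only that the letters are not in this window.

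After APC siRNA, 12 of the 33 genes fell and 3 rose against siGFP. The share called, 45.5%, lay near the 40.0% called among all genes, of which 18.7% fell and 21.3% rose. Arrays of the groups did not overlap in 17 of the 33 genes, where 38.5% of all genes were so separated. At a change of at least 1, 6 genes fell and 1 rose, 21.2% of the 33, where 3.6% of all genes passed that rule and 1.73% did so by falling. The genes that fell were mostly S100A genes, 9 of 15. The envelope precursors split, with 3 rises and 3 falls among 13. The 5 S100-fused type genes gave 0 calls with limma, and 0 at an unadjusted p under 0.05. The median change over the 33 was -0.08, against -0.00 over all genes.

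The calprotectin pair showed the largest falls. S100A8 signal was 7.43, 7.38, 7.38 and 7.45 in siAPC (replicates A to D), against 10.08, 10.12, 10.18 and 10.17 in siGFP. S100A9 signal was 7.35, 7.55, 7.25 and 7.45 in siAPC, against 9.49, 9.58, 9.67 and 9.59 in siGFP. In both genes every siAPC array lay far below every siGFP array. Because these are bulk measurements, fewer cells expressing a gene and less RNA per cell cannot be told apart. The differences were -2.73 ± 0.05 and -2.18 ± 0.06 (SE, limma adjusted p = 6.93e-19 and 3.04e-16), a 4.54-fold fall for S100A9. The second S100A8 probe set, near the floor of the arrays, gave -0.75. Marker lists of other cell types moved with these falls. Of 11 leukocyte markers, 4 fell (CD14 by 2.70, LYZ by 1.08, ITGAM by 0.34 and MS4A1 by 0.27), and their summed signal was 7.86 to 8.02 in siAPC against 8.80 to 8.88 in siGFP (log2). PTPRC, which defines leukocytes, was at 2.72 in siAPC and 2.67 in siGFP. Of 8 fibroblast markers 3 fell, with a sum of 11.57 to 11.63 in siAPC against 12.52 to 12.63 in siGFP. Of 5 endothelial markers 2 fell, and of 8 mammary epithelial markers 6 fell and 2 rose. The part of any marker list in the changes after APC siRNA was not tested.

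IVL and a further 3 S100A genes fell by 1 or more on the log2 scale after APC siRNA. IVL signal was 7.22, 7.06, 7.13 and 7.20 in siAPC, against 8.46, 8.59, 8.50 and 8.35 in siGFP. S100A7 signal was 3.42, 3.54, 3.89 and 3.30 in siAPC, against 4.89, 4.94, 5.42 and 5.11 in siGFP. The groups did not overlap in either gene, and S100A7 in siAPC lay in the lowest part of the signal range. S100A4 signal was 10.73, 10.70, 10.69 and 10.69 in siAPC, against 11.90, 11.80, 11.86 and 11.78 in siGFP. S100A14, an S100 protein of simple and stratified epithelia, was 10.28, 10.35, 10.30 and 10.28 in siAPC, against 11.35, 11.28, 11.42 and 11.19 in siGFP. The arrays of siAPC and siGFP did not overlap in these genes either. The changes were -1.32 ± 0.07 for IVL, -1.55 ± 0.14 for S100A7, -1.13 ± 0.03 for S100A4 and -1.01 ± 0.05 for S100A14 (limma adjusted p at most 1.41e-08). Smaller falls were called for S100A3 (-0.67), LCE1B (-0.59), S100A13 (-0.40), SPRR1B (-0.37), S100A2 (-0.36) and S100A6 (-0.09). S100A2 (13.55 in siAPC and 13.91 in siGFP) and S100A6 (13.64 in siAPC and 13.73 in siGFP) lay near the highest value of any array, 14.35.

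The rises after APC siRNA were all in the SPRR family. SPRR2B signal was 8.15, 8.68, 8.62 and 8.64 in siAPC, against 6.50, 6.60, 6.68 and 6.54 in siGFP. SPRR3 signal was 6.55, 6.55, 6.31 and 6.47 in siAPC, against 6.12, 6.03, 5.70 and 5.92 in siGFP. Every siAPC array exceeded every siGFP array in both. SPRR2B rose by 1.94 ± 0.14 and SPRR3 by 0.53 ± 0.12 (limma adjusted p = 6.21e-10 and 0.0018). SPRR2C, annotated as a transcribed pseudogene, rose by 0.38 ± 0.10 at a low signal of 3.58 to 3.95 in siAPC against 3.30 to 3.58 in siGFP. The SPRR2B probe set is of the kind that may hybridise to near-identical transcripts, so its signal may include other SPRR2 genes. The second SPRR3 probe set moved the other way, at 4.60 in siAPC and 4.97 in siGFP (adjusted p = 0.00467), and with the mean of both probe sets the SPRR3 change was 0.08 and not called. The ratio of 3′ to 5′ ACTB control signal, a measure of RNA and labelling quality, was 1.57 in siAPC and 1.83 in siGFP (log2), a difference of -0.26 with an exact two-sided permutation p = 0.0286, the smallest 4 against 4 arrays allow, and 0.0501 after adjustment over 14 comparisons of ACTB and GAPDH. The GAPDH ratio moved the other way, at 0.12 in siAPC and 0.09 in siGFP, a difference of 0.03 (exact permutation p = 0.0286, adjusted 0.0501). The part of either ratio in the changes was not tested.

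**Figure D2:**
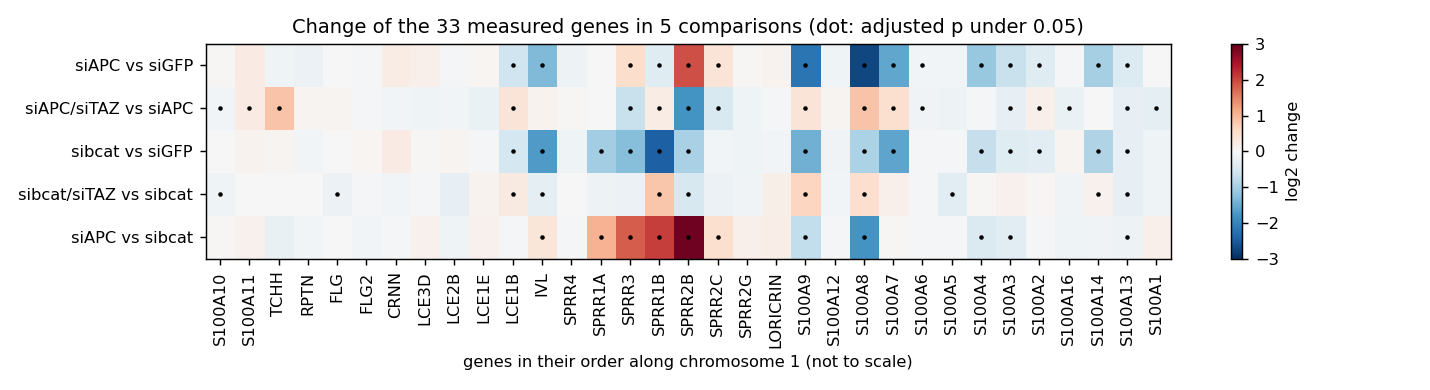
Log2 change (colour, blue lower and red higher in the first-named group) of the 33 genes, ordered along chromosome 1 but not to scale, in 5 comparisons (rows), with a dot where the limma adjusted p is under 0.05. The S100A8 and S100A9 cells are blue in both single depletions, and SPRR2B is red in siAPC against siGFP (1.94) and blue in sibcat against siGFP (-0.96).

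After beta-catenin siRNA, 14 of the 33 genes fell and 0 rose with limma, and 14 fell and 0 rose at an unadjusted p under 0.05. The 42.4% called compared with 37.1% among all genes, of which 15.7% fell and 21.4% rose. Groups did not overlap in 15 of the 33 genes, where 33.4% of all genes were so separated. At a change of at least 1, 6 genes fell, 18.2% of the 33, where 2.44% of all genes passed and 1.44% did so by falling. By role, 8 of 15 S100A genes and 6 of 13 envelope precursors fell, 4 of those 6 being SPRR genes.

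SPRR1B, a cross-bridging precursor made by squamous cells, fell most. Its signal was 6.35, 6.35, 6.13 and 6.38 in sibcat, against 8.64, 8.73, 8.85 and 8.75 in siGFP. SPRR3 was at 4.84, 4.47, 4.91 and 4.41 in sibcat, against 6.12, 6.03, 5.70 and 5.92 in siGFP. SPRR2B was at 5.41, 5.57, 5.77 and 5.71 in sibcat, against 6.50, 6.60, 6.68 and 6.54 in siGFP. None of these 3 genes had an overlap between the groups. The changes were -2.44 ± 0.06, -1.28 ± 0.12 and -0.96 ± 0.14 (limma adjusted p = 5.94e-17, 6.99e-08 and 1.19e-05), a 5.43-fold fall for SPRR1B. SPRR1A was at 6.01, 6.58, 6.02 and 6.48 in sibcat, against 7.31, 7.22, 7.41 and 7.33 in siGFP, a change of -1.04 ± 0.10 (adjusted p = 5.76e-08). In sibcat, replicates B and D of SPRR1A lay above A and C, and all 4 lay below siGFP. The second SPRR1A probe set changed by -2.62, and the second SPRR3 probe set by -0.42.

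IVL and 8 of the 15 S100A genes fell beside them. IVL was at 6.67, 6.71, 6.79 and 6.96 in sibcat, against 8.46, 8.59, 8.50 and 8.35 in siGFP. S100A7 was at 3.28, 3.60, 3.52 and 3.64 in sibcat, against 4.89, 4.94, 5.42 and 5.11 in siGFP. S100A9 was at 8.23, 8.0, 8.17 and 8.12 in sibcat, against 9.49, 9.58, 9.67 and 9.59 in siGFP. Each gene's sibcat arrays lay below all of its siGFP arrays. The changes were -1.69 ± 0.07, -1.58 ± 0.14 and -1.45 ± 0.06 (limma adjusted p = 1.17e-13, 1.51e-08 and 2.52e-13). S100A8, with 9.23, 9.08, 9.22 and 9.24 in sibcat against 10.08, 10.12, 10.18 and 10.17 in siGFP, changed by -0.94 ± 0.05. S100A14 changed by -0.90 ± 0.05 and S100A4 by -0.69 ± 0.03, with smaller falls in LCE1B, S100A3, S100A2 and S100A13 (-0.53 to -0.24). Leukocyte markers fell in 2 of 11 (LYZ by 0.93 and CD14 by 0.23), with a summed log2 signal of 8.61 to 8.74 in sibcat against 8.80 to 8.88 in siGFP. Fibroblast markers fell in 4 of 8, with a sum of 12.04 to 12.12 in sibcat against 12.52 to 12.63 in siGFP. Of 5 endothelial markers 1 fell, and of 8 mammary epithelial markers 6 fell and 2 rose. ACTB 3′ to 5′ ratios were 1.81 in sibcat and 1.83 in siGFP, and GAPDH ratios 0.12 in sibcat and 0.09 in siGFP. The part of the marker lists in these falls was not tested.

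Set side by side, 11 genes fell after either siRNA (IVL, LCE1B, SPRR1B, S100A2, S100A3, S100A4, S100A7, S100A8, S100A9, S100A13 and S100A14), and 2 rose after APC siRNA and fell after beta-catenin siRNA (SPRR2B and SPRR3). S100A6 fell and SPRR2C rose after APC siRNA without a call in sibcat, SPRR1A fell after beta-catenin siRNA without a call in siAPC, and 17 had no call in either on the probe sets used. Both comparisons use the same siGFP arrays, so the shared direction is given as values and not as independent evidence.

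The direct comparison of siAPC with sibcat does not use the siGFP arrays. It called 11 of 33 genes, 33.3%, beside 33.8% of all genes, with 6 higher and 5 lower in siAPC (16.3% and 17.5% of all genes). Groups did not overlap in 14 of the 33, against 32.7% of all genes. At a change of at least 1 there were 4 genes higher and 1 lower in siAPC, 15.2% of the 33, where 1.67% of all genes passed and 1.03% were higher. The 4 were all SPRR genes. SPRR2B was higher in siAPC by 2.91 ± 0.14, SPRR1B by 2.07 ± 0.06, SPRR3 by 1.81 ± 0.12 and SPRR1A by 1.05 ± 0.10 (limma adjusted p = 3.03e-12, 1.11e-15, 5.99e-10 and 6.2e-08). Every siAPC array exceeded every sibcat array for these 4 genes, and SPRR2B reached a 7.51-fold difference. SPRR2C and IVL were higher by 0.47 ± 0.10 and 0.37 ± 0.07. S100A8 was lower in siAPC by -1.78 ± 0.05, S100A9 by -0.73 ± 0.06 and S100A4 by -0.44 ± 0.03, and S100A3 and S100A13 by -0.31 and -0.16. S100A7 and S100A14 were not called, with differences of 0.03 ± 0.14 and -0.11 ± 0.05. SPRR4, made in skin after ultraviolet light, and SPRR2G were also not called (-0.03 and 0.16). The ACTB ratio was 1.57 in siAPC and 1.81 in sibcat (exact permutation p = 0.0286), and the GAPDH ratio was 0.12 in each. Summed leukocyte markers were 7.86 to 8.02 in siAPC against 8.61 to 8.74 in sibcat. The part of the ratios or the markers was not tested.

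**Figure D3:**
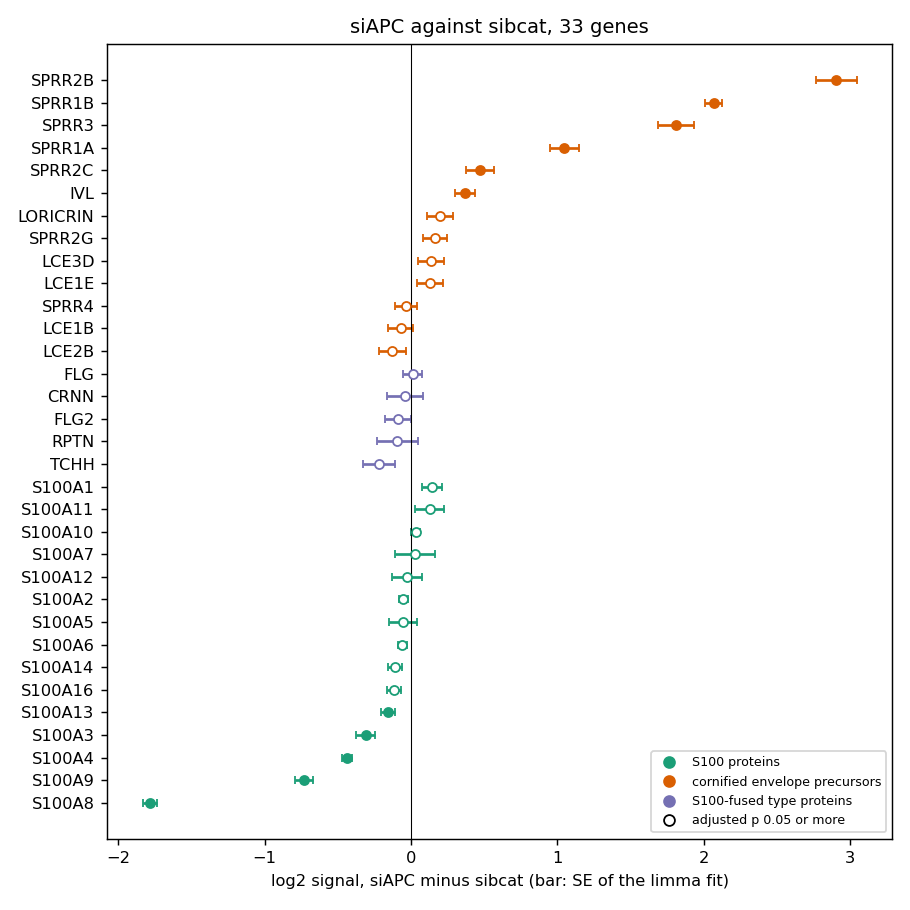
Log2 signal in siAPC minus sibcat for the 33 genes, grouped by role, with the SE of the limma fit as a bar (n = 4 arrays each) and filled points where the adjusted p is under 0.05. The 5 called SPRR genes lie to the right (0.47 to 2.91), and the 5 called S100A genes to the left (-1.78 to -0.16).

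Probe sets of 1 gene did not always agree, as the plot of both probe sets of SPRR1A, SPRR3 and S100A8 shows. The SPRR1A probe set with the higher mean, which is of the cross-hybridising kind, was level between siAPC and siGFP (7.32 in each). The other was at 8.45, 8.38, 8.35 and 8.41 in siAPC, against 7.57, 7.46, 7.60 and 7.56 in siGFP, a difference of 0.85 (adjusted p = 1.84e-09). It was at 4.91, 4.92, 5.05 and 4.82 in sibcat, which put siAPC 3.47 above sibcat. On this probe set SPRR1A moved as SPRR2B did, higher in siAPC and lower in sibcat than in siGFP. The second SPRR3 probe set was 4.60 in siAPC and 4.55 in sibcat, with no gap between them like the 1.81 of the first. Of the other 4 genes with more than 1 probe set, S100A10 and S100A6 were tested on probe sets near the top of the signal range. The dimmer S100A10 probe set was higher by 0.19 in siAPC and lower by 0.15 in sibcat against siGFP (8.41 in siAPC, 8.06 in sibcat and 8.22 in siGFP, limma adjusted p over all probe sets = 0.00934 and 0.0314), and 0.34 higher in siAPC than in sibcat. The dimmer S100A6 probe set was lower by 0.36 in siAPC than in either sibcat or siGFP (5.72 in siAPC, 6.08 in sibcat and 6.07 in siGFP). The second S100A13 probe set was not called in siAPC or sibcat against siGFP (-0.20 and -0.23), and neither LCE1E probe set was called.

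**Figure D4:**
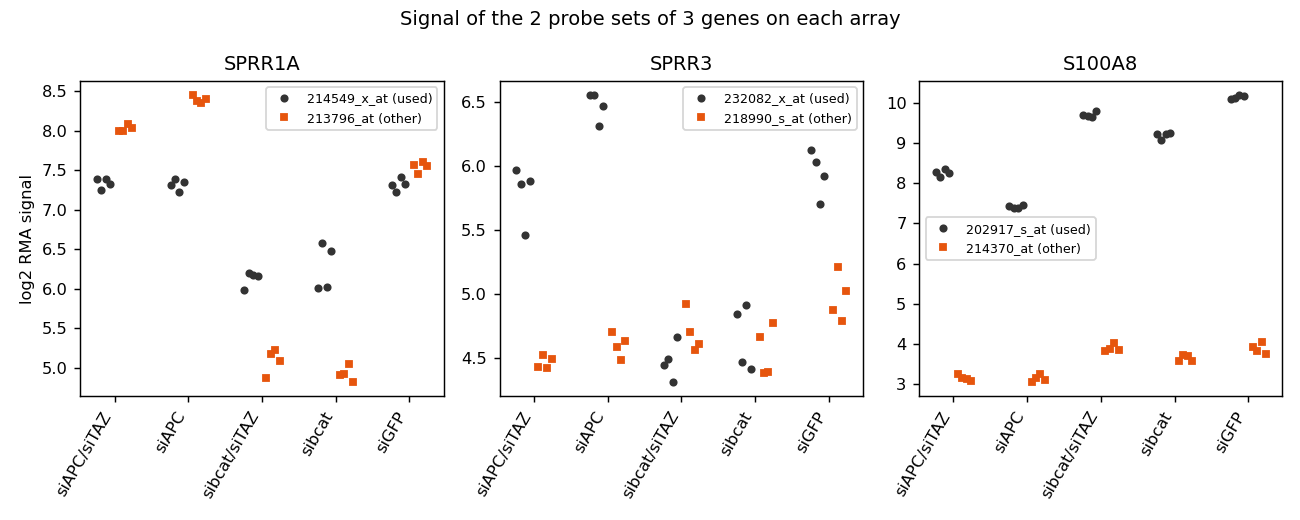
Log2 RMA signal on each array of the 2 probe sets of SPRR1A, SPRR3 and S100A8 in the 5 groups; circles are the probe set used in the tests and squares the other. The second SPRR1A probe set shows siAPC above siGFP (8.40 and 7.55), and the first does not (7.32 in each).

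Adding TAZ siRNA to APC siRNA changed 17 of the 33 genes against siAPC alone, 8 higher and 9 lower, 51.5% where 43.5% of all genes were called, 20.7% higher and 22.8% lower. Groups did not overlap in 17 of the 33, against 42.4% of all genes, and 1 gene changed by at least 1, against 4.37% of all genes. That gene was SPRR2B. SPRR2B was at 6.70, 6.66, 6.76 and 6.78 in siAPC/siTAZ, against 8.15, 8.68, 8.62 and 8.64 in siAPC. SPRR3 was at 5.97, 5.86, 5.46 and 5.88 in siAPC/siTAZ, against 6.55, 6.55, 6.31 and 6.47 in siAPC. No array of the combined depletion reached the siAPC range. The changes were -1.80 ± 0.14 and -0.68 ± 0.12 (limma adjusted p = 1.51e-09 and 0.00014), and SPRR2C fell by 0.47 ± 0.10. SPRR1A changed by 0.02 on the probe set used and by -0.37 on the other (adjusted p = 9.82e-05 among probe sets that avoid cross-hybridising ones). The second SPRR3 probe set changed by -0.13 and was not called (4.46 in siAPC/siTAZ and 4.60 in siAPC).

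The siAPC arrays enter both this comparison and that of siAPC with siGFP, so the values of the 2 comparisons are given side by side and not as independent evidence. The calprotectin pair rose on adding TAZ siRNA. S100A8 was at 8.27, 8.14, 8.36 and 8.25 in siAPC/siTAZ, against 7.43, 7.38, 7.38 and 7.45 in siAPC. S100A9 was at 7.80, 7.73, 7.84 and 7.82 in siAPC/siTAZ, against 7.35, 7.55, 7.25 and 7.45 in siAPC. Both pairs of groups stayed apart, and both genes remained well below the siGFP arrays. The rises were 0.84 ± 0.05 and 0.40 ± 0.06 (limma adjusted p = 2.21e-11 and 1.6e-05), while the second S100A8 probe set changed by 0.01. S100A7 rose by 0.48 ± 0.14 with overlapping arrays, at 3.66, 4.10, 4.12 and 4.21 in siAPC/siTAZ against 3.42, 3.54, 3.89 and 3.30 in siAPC. LCE1B (0.39), SPRR1B (0.23) and S100A2 (0.14) rose less, and S100A3, S100A13 and S100A6 fell (-0.24, -0.26 and -0.10). IVL, S100A4 and S100A14 were not called, with changes of 0.10 ± 0.07, -0.03 ± 0.03 and -0.02 ± 0.05.

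A gene outside these rules, singled out after its values were seen, was TCHH, which encodes a protein of the hair follicle's inner root sheath. It was at 4.00, 4.14, 3.89 and 3.74 in siAPC/siTAZ, against 3.10, 3.21, 2.95 and 3.09 in siAPC, a rise of 0.85 ± 0.11 (limma adjusted p = 1.58e-06). Group means in sibcat/siTAZ, sibcat and siGFP were 3.31, 3.31 and 3.21, so the siAPC/siTAZ arrays alone stood above, within a range where signals are low. Of 8 fibroblast markers, 4 rose and 1 fell in siAPC/siTAZ against siAPC (median change 0.18, range -0.43 to 4.78), 62.5% called beside 43.5% of all genes. Their summed log2 signal was 13.15 to 13.20 in siAPC/siTAZ against 11.57 to 11.63 in siAPC. The ACTB ratio was 1.99 in siAPC/siTAZ against 1.57 in siAPC, and the GAPDH ratio 0.16 in siAPC/siTAZ against 0.12 in siAPC. The part of the markers or the ratios in these changes was not tested.

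Adding TAZ siRNA to beta-catenin siRNA changed 11 of the 33 genes against sibcat alone, 5 higher and 6 lower, 33.3% beside 31.7% of all genes, of which 18.0% were higher and 13.7% lower. Groups did not overlap in 8 of the 33, against 29.5% of all genes, and 0 of the called changes reached 1 on the log2 scale, against 2.31% of all genes. SPRR1B rose most, with 7.11, 7.20, 7.17 and 7.05 in sibcat/siTAZ against 6.35, 6.35, 6.13 and 6.38 in sibcat. S100A9 was at 8.85, 8.77, 8.73 and 8.78 in sibcat/siTAZ, against 8.23, 8.0, 8.17 and 8.12 in sibcat. S100A8 was at 9.70, 9.67, 9.64 and 9.79 in sibcat/siTAZ, against 9.23, 9.08, 9.22 and 9.24 in sibcat. The arrays of the 2 groups did not overlap in any of the 3 genes, and in each the combined depletion stayed below siGFP. The rises were 0.83 ± 0.06, 0.65 ± 0.06 and 0.51 ± 0.05 (limma adjusted p = 6.95e-10, 4.32e-08 and 8.6e-08). LCE1B rose by 0.28 and S100A14 by 0.12. The call for S100A14 (adjusted p = 0.0487) was lost without any 1 of 7 of the 8 arrays, sibcat replicate D being the exception, at adjusted p from 0.0532 to 0.115.

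IVL was at 6.60, 6.56, 6.44 and 6.44 in sibcat/siTAZ, against 6.67, 6.71, 6.79 and 6.96 in sibcat, a fall of 0.27 ± 0.07 (limma adjusted p = 0.0033). SPRR2B was at 5.67, 4.99, 5.08 and 4.84 in sibcat/siTAZ, against 5.41, 5.57, 5.77 and 5.71 in sibcat, a change of -0.47 ± 0.14 (adjusted p = 0.013). Replicate A of sibcat/siTAZ lay among the sibcat arrays for SPRR2B, and the call was lost without replicate D of sibcat/siTAZ (adjusted p = 0.0582). S100A5, S100A13, FLG and S100A10 fell by 0.31, 0.24, 0.19 and 0.12, with S100A10 near the top of the signal range (13.57 in sibcat/siTAZ and 13.70 in sibcat) and its dimmer probe set lower by 0.50. Fibroblast markers rose in 3 of 8, 37.5% beside 31.7% of all genes called and 18.0% that rose. Their summed log2 signal was 13.07 to 13.16 in sibcat/siTAZ against 12.04 to 12.12 in sibcat. The ACTB ratio was 2.04 in sibcat/siTAZ against 1.81 in sibcat (exact two-sided permutation p = 0.0286, and 0.0501 adjusted over the same 14 comparisons). The GAPDH ratio was 0.18 in sibcat/siTAZ against 0.12 in sibcat (exact permutation p = 0.0571). The part of the markers or the ratios in these changes was not tested. CTNNB1 was itself lower in sibcat/siTAZ than in sibcat, and the contributions of less CTNNB1 and less WWTR1 cannot be told apart in this comparison.

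The change with TAZ siRNA was also compared between the APC and beta-catenin backgrounds, as the change in the APC background minus that in the beta-catenin background. This difference was called in 9 of 33 genes, 27.3% beside 27.7% of all genes, with 4 above and 5 below 0 (12.2% and 15.5% of all genes), or 3 and 6 with arrays centred on their medians. It reached 1 in size for 1 gene, SPRR2B, against 1.69% of all genes. It was -1.33 ± 0.20 for SPRR2B, which fell by 1.80 with TAZ siRNA in the APC background and by 0.47 in the beta-catenin background. It was -0.60 ± 0.08 for SPRR1B, whose rise was 0.23 in the APC background and 0.83 in the beta-catenin background. For S100A8 it was 0.34 ± 0.07, for IVL 0.37 ± 0.10, for S100A9 -0.26 ± 0.09 and for SPRR3 -0.49 ± 0.18 (limma adjusted p = 0.000922, 0.00567, 0.0314 and 0.0431). The S100A9 call was lost without replicate B or D of siAPC, B of siAPC/siTAZ, B of sibcat or A of sibcat/siTAZ (adjusted p from 0.0636 to 0.0747). The SPRR3 call was lost without A, B or D of siAPC, B or C of siAPC/siTAZ, B or D of sibcat, or A, B or D of sibcat/siTAZ (adjusted p from 0.0507 to 0.0979). TCHH, S100A3 and FLG gave 0.85, -0.37 and 0.28. The S100A8 difference was -0.25 and not called on its second probe set. For SPRR3 the second probe set gave -0.28, also not called.

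Against the control, the combined depletions ended at different places. In siAPC/siTAZ, 13 genes were lower and 2 higher than in siGFP, 45.5% beside 47.2% of all genes (24.3% lower and 23.0% higher), and 12 of the 13 were S100A genes. At a change of at least 1, 6 genes were lower, against 5.61% of all genes in either direction. The 7 SPRR genes gave 0 calls with limma in siAPC/siTAZ against siGFP and 1 at an unadjusted p under 0.05, with changes of 0.14 ± 0.14 for SPRR2B, -0.15 ± 0.12 for SPRR3 and -0.14 ± 0.06 for SPRR1B, which was called without replicate A of siGFP (-0.17, adjusted p = 0.0251). The remaining envelope gene called was IVL, at 7.37, 7.16, 7.21 and 7.25 in siAPC/siTAZ against 8.46, 8.59, 8.50 and 8.35 in siGFP. The 2 higher genes were TCHH, by 0.73, and S100A11, at 11.59, 11.45, 11.43 and 11.44 in siAPC/siTAZ against 10.82, 11.01, 11.03 and 11.07 in siGFP. These counts hold for the probe sets used. The second probe sets of SPRR1A and SPRR3 changed by 0.485 and -0.508 (limma adjusted p over all probe sets = 3.23e-06 and 0.000223).

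In sibcat/siTAZ, 21 genes were lower and 0 higher than in siGFP with limma, also 21 and 0 at an unadjusted p under 0.05. The 63.6% called compared with 44.9% of all genes, of which 19.5% were lower and 25.4% higher. The count was 16 with arrays centred on their medians, and 6 genes changed by at least 1, against 3.67% of all genes. SPRR genes made up 6 of the 21 and S100A genes 12. IVL was lower by -1.97 ± 0.07, SPRR1B by -1.61 ± 0.06, SPRR3 by -1.47 ± 0.12, SPRR2B by -1.44 ± 0.14, S100A7 by -1.42 ± 0.14 and SPRR1A by -1.19 ± 0.10 (limma adjusted p at most 4.13e-08). S100A9 and S100A8 had smaller differences from siGFP in sibcat/siTAZ, -0.80 ± 0.06 and -0.44 ± 0.05, than the -1.78 ± 0.06 and -1.88 ± 0.05 of siAPC/siTAZ.

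**Figure D5:**
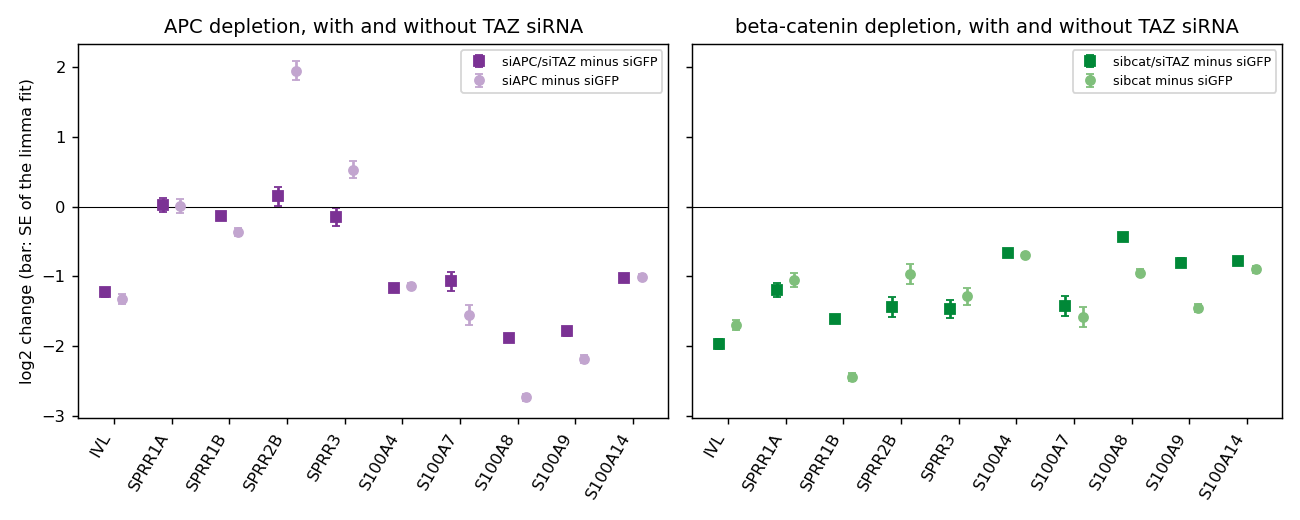
Log2 change from siGFP of 10 genes in siAPC/siTAZ and siAPC (left panel) and in sibcat/siTAZ and sibcat (right panel), with the SE of the limma fit as a bar (n = 4 arrays each). With TAZ siRNA, SPRR2B is 0.14 from siGFP in the APC background, against 1.94 without it, while all 10 genes stay below 0 in both beta-catenin groups.

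Other genes of cornification gave a background for these values. Of 51 measured partners outside the cluster (cross-linking enzymes, proteases and their inhibitors, lipid enzymes and other envelope proteins), 7 rose and 18 fell in siAPC, and 5 rose and 23 fell in sibcat, against siGFP. The shares called were 49.0% in siAPC and 54.9% in sibcat, beside 40.0% and 37.1% of all genes. TGM1, the transglutaminase that cross-links involucrin and SPRR proteins, fell by 0.42 ± 0.09 in siAPC and by 0.79 ± 0.09 in sibcat, and by a further 1.08 and 0.99 when TAZ siRNA was added to each. The protease inhibitors SERPINB3 and SERPINB4 fell by 3.68 and 3.49 in siAPC and by 2.59 and 2.73 in sibcat, and the protease KLK8 by 1.81 in siAPC and 2.27 in sibcat. CSTA, an inhibitor that is cross-linked into the envelope, fell by 1.76 in sibcat and rose by 1.33 in siAPC/siTAZ against siAPC. CLIC3 fell by 3.16 with TAZ siRNA in either background.

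Of 46 regulators of epidermal differentiation, 7 rose and 27 fell in siAPC, and 4 rose and 30 fell in sibcat, against siGFP. That is 73.9% called in each, beside 40.0% of all genes in siAPC (18.7% fell) and 37.1% in sibcat (15.7% fell). The shares of all genes include dim genes, while 41 of the 46 regulators were above the array medians in siGFP. Calls were more frequent at higher signal within the complex. In siAPC against siGFP, 59.1% of its 22 genes with a group mean above the medians were called, and 18.2% of the other 11. With TAZ siRNA added, 25 rose and 7 fell against siAPC, 69.6% beside 43.5% of all genes (20.7% rose). Against sibcat 21 rose and 7 fell, 60.9% beside 31.7% of all genes (18.0% rose). HOPX fell by 2.92 in siAPC and 2.99 in sibcat, and FOS, a subunit of AP-1, by 2.24 in siAPC and 2.20 in sibcat. The epithelial factor ELF3 fell by 2.25 in siAPC and fell by 1.76 in sibcat. GRHL3, a factor needed for barrier formation, fell by 1.55 in sibcat and by 0.57 in siAPC, and siAPC exceeded sibcat by 0.98. On adding TAZ siRNA, FOS rose by 1.53 against siAPC and by 1.21 against sibcat. JUN, the other main AP-1 subunit, rose by 0.97 in siAPC and was not called in sibcat (0.12) against siGFP, and fell by 0.51 in siAPC/siTAZ against siAPC and by 1.65 in sibcat/siTAZ against sibcat. ID1, ID2 and ID3 rose by 1.78, 1.72 and 2.02 in siAPC/siTAZ against siAPC, and the Notch target HEY1 by 2.48.

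Partners of the S100 proteins outside the cluster moved in both directions. Of 21 measured, 5 rose and 7 fell in siAPC, and 4 rose and 6 fell in sibcat, against siGFP, 57.1% and 47.6% beside 40.0% and 37.1% of all genes. S100P, an S100 protein encoded on another chromosome, fell by 2.67 in siAPC and by 3.17 in sibcat (limma adjusted p = 7.38e-19 and 1.6e-19). ANXA6, a membrane-binding annexin, rose by 0.92 and 0.83 in the same groups. The scavenger receptor CD36 rose by 1.35 in siAPC/siTAZ against siAPC and by 1.62 in sibcat/siTAZ against sibcat.

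Among 12 genes measured between the outermost members on chromosome 1, 4 rose and 1 fell in siAPC, and 1 rose and 3 fell in sibcat, against siGFP. The shares called, 41.7% and 33.3%, lay near the 40.0% and 37.1% of all genes. PRR9, a proline-rich gene beside the SPRR genes, was at 6.26, 6.22, 5.92 and 6.04 in siAPC and 5.55, 5.57, 5.55 and 5.37 in sibcat, against 4.20, 3.67, 3.96 and 4.03 in siGFP. With TAZ siRNA it was at 4.22, 4.36, 4.45 and 4.69 in siAPC/siTAZ and 3.88, 3.80, 3.73 and 3.77 in sibcat/siTAZ. Against siGFP, PRR9 was higher in both single depletions, where SPRR2B was higher in siAPC and lower in sibcat. It fell by 1.68 in siAPC/siTAZ against siAPC and by 1.72 in sibcat/siTAZ against sibcat. CCDST, a non-coding gene of the cluster, was at 7.34 to 7.74 in siAPC/siTAZ, 5.63 to 6.28 in siAPC, 4.13 to 4.41 in sibcat/siTAZ and 3.20 to 3.59 in sibcat, against 3.61 to 4.12 in siGFP. Its siAPC/siTAZ arrays stood above all others.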

How the data were processed

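Gene expression was measured once per sample on 20 HG-U133 Plus 2.0 arrays. The deposited values are log2 signals that the authors made with RMA, per the submitters' processing notes; the log2 scale follows from the range of the values, and the sources used here do not give the RMA version, siRNA sequences, harvest time or scan dates. Arrays have no read depth, and the number of arrays limits the precision.

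Of 54675 probe sets, 41091 carried 1 gene symbol in the platform annotation, 1801 several, 11721 were unnamed here and 62 were controls. Each of 19775 genes was represented by its brightest probe set (by mean over the 20 arrays), without a filter on low values. Of the 33 genes of the complex, 7 had more than 1 probe set.

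All 20 arrays entered 1 linear model of group means in limma 3.58.1 (R 4.3.3) with empirical Bayes moderation. Tests were two-sided, and p-values were adjusted over the 19775 genes by the Benjamini-Hochberg method. A gene was called at an adjusted p under 0.05. On simulated data for siAPC against siGFP, the fit recovered 36%, 88%, 100% and 100% of changes of 0.25, 0.5, 1 and 2. It gave 8 false calls among 170. The data themselves gave 7913 calls among the 19775 genes, with a smallest called change of 0.08. Because the adjusted threshold depends on the number of calls, the simulated rates do not give the power or error rate in the data. Replicate letters were not used to pair the arrays in this model. Residuals of the 40 same-letter pairs had a median correlation of 0.027, between -0.088 and 0.156, with 8 above 0.1. These values cannot decide whether arrays of the same letter were handled together. ACTB and GAPDH 3′ to 5′ ratios were compared by exact permutation.

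Values per array are given for genes called with a change of at least 1 in siAPC or sibcat against siGFP, or on adding TAZ siRNA to either; background lists are represented by up to 4 genes with the largest called changes per comparison, and a few other listed genes were chosen after their values were seen. The genes of the complex and all lists were chosen with earlier results of these data known. Alternatives were a replicate block, other choices of probe set, filters on signal, renormalization, a trended robust fit, only the groups compared, a minimum change of 1, and leaving out each array. Promoter letters came from RefSeq (GRCh38.p14).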

Additional observations from a re-analysis of the deposited data

Results flagged for a closer look

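In 4 of 65 groups of 4 arrays, 1 array stood far from the other 3 relative to the range of its group, where chance marks about 1 group in 20. These were the lowest S100A7 value in sibcat/siTAZ (3.49), the lowest S100A8 value in sibcat (9.08), the lowest SPRR1B value in sibcat (6.13) and the lowest SPRR2B value in siAPC (8.15). The SPRR2B array was still above all siGFP arrays, and no called change of these 4 genes against siGFP was lost when the far array was left out.

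The change with TAZ siRNA differed between the APC and beta-catenin backgrounds, by limma's test of the difference itself, for 6 of the 10 genes given by array. The difference (APC background minus beta-catenin background) was -1.328 for SPRR2B, -0.6 for SPRR1B, -0.495 for SPRR3, 0.368 for IVL, 0.337 for S100A8 and -0.255 for S100A9. CTNNB1 signal was lower in sibcat/siTAZ than in sibcat and higher in siAPC/siTAZ than in siAPC. APC signal was lower in siAPC/siTAZ than in siAPC and higher in sibcat/siTAZ than in sibcat. The part of these shifts in the differences of TAZ effects was not tested.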

How the results depend on the processing

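The replicate block called 16 of the 33 genes in siAPC and 14 in sibcat against siGFP, 17 in siAPC/siTAZ against siAPC, 10 in sibcat/siTAZ against sibcat, 14 in siAPC/siTAZ and 21 in sibcat/siTAZ against siGFP, 11 in siAPC against sibcat, and 8 for the difference of TAZ effects; 7 of 20 arrays correlated best with their own letter. With a change of at least 1 required, the counts in the same order were 7, 6, 1, 0, 6, 6, 5 and 1. With a mean signal of at least 6, which leaves 16 of the 33 genes, the count was 11 in siAPC/siTAZ against siAPC and 13 in sibcat/siTAZ against siGFP. With only the arrays of the groups compared it was 7 in sibcat/siTAZ against sibcat. Leaving out 1 array gave 14 to 15, 14 to 15, 15 to 17, 7 to 11, 14 to 16, 17 to 21, 11 to 13 and 6 to 10 in that order, the 7 coming without replicate A or D of sibcat/siTAZ.

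For the 10 genes given by array and the siRNA targets, 1954 of 2056 recomputed changes kept their direction and side of the threshold, 79 lost a call, 14 gained one and 9 turned direction. Those 9 all came from the choice of probe set. Avoiding cross-hybridising probe sets, S100A8 changed by 0.002 in sibcat/siTAZ against siGFP and by -0.247 in the difference of TAZ effects, SPRR1A by -0.365 in siAPC/siTAZ against siAPC and by -0.532 in the difference, and APC by 0.027, 0.135, 0.163 and 0.045 in siAPC against siGFP, siAPC/siTAZ against siAPC, siAPC/siTAZ against siGFP and the difference. With the mean of all probe sets, SPRR1A changed by -0.172 in siAPC/siTAZ against siAPC. The S100A9 difference of TAZ effects was not called with the replicate block (adjusted p = 0.0515). The cause of these shifts was not tested. Low signals limit S100A7, SPRR2C, TCHH and the S100-fused type genes, and signals near the top of the range limit S100A2, S100A6 and S100A10.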
